A study of Sus scrofa with 18 samples.

Results

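The red blood cell microRNAs (miRNAs) miR-451, miR-144 and miR-486 (ssc-miR-451, ssc-miR-144 and ssc-miR-486 in the count table) were followed through small RNA libraries of pig backfat, the subcutaneous fat along the back. They were picked by name and were 3 of the 240 mature miRNAs in the count table, with 300 sequence forms of the 17623 listed under any mature miRNA: 154 forms of miR-451, 32 of miR-144 and 114 of miR-486. The 18 libraries came from 18 pigs of the Italian Large White breed, 9 in a high and 9 in a low class of backfat deposition, fed one diet in one environment and weighing 150 to 160 kg at 233 to 250 days of age. The high class held 5 castrated males and 4 females, the low class 4 castrated males and 5 females, and each library carried an animal number of its own. The labels give no genotype and no treatment other than castration, and the pigs, of 1 breed, were sampled at a commercial slaughterhouse.

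miR-451 and miR-144 are made from neighbouring hairpins of one cluster, and in the Sscrofa11.1 annotation their genes lie within 1000 bases of each other and overlap ERAL1. Transcription of that cluster is driven by the erythroid factor GATA1 in mouse, and both miRNAs act in red blood cell maturation. miR-486 comes from a hairpin within ANK1, the gene of the red cell membrane protein ankyrin, and is also known from muscle in mouse. miR-451 is the classic miRNA that bypasses Dicer: its short hairpin is cut by Argonaute itself, and the product is then trimmed at its 3′ end, so that several lengths are usual. miR-144 and miR-486 are cut by Drosha and Dicer. In whole tissue such miRNAs are commonly read as a sign of blood in the sample, and in bulk samples fewer cells of a type and less RNA per cell cannot be told apart.

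The mature sequences, as the deposited table annotates them, are shown with the seed in capitals (bases 2 to 8, which pair with targets), because the seed decides which group of targets a miRNA shares with others. The table writes T for the U of RNA.
miR-451: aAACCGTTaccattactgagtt
miR-144: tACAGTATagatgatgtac
miR-486: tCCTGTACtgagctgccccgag
The 3 seeds differed from each other, and no other miRNA in the table had any of them. The annotated products were 22, 19 and 22 bases long, at positions 44 to 65, 78 to 96 and 76 to 97 of their precursors. Each miRNA lay on 1 precursor, 0 of its sequences were also listed under another miRNA, and only 1 arm of each hairpin was listed.

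Each library held 9601510 to 34588252 counts over distinct sequences (median 20674716), of which miR-451 took 26117 to 87354, miR-486 16757 to 74471 and miR-144 1414 to 9724. In the class comparison of all miRNAs, 8 of 221 tested passed an adjusted p of 0.05 (3.62%, 3 higher and 5 lower in high pigs), and 0 to 12 with 1 library left out. Labels gave library codes in 4 runs, and the codes AC485 to AC488 (low replicates 7, 8 and 9 and high replicate 9) included the 3 shallowest libraries. What the runs of codes stand for is not stated. No pair of libraries of a class looked like 1 library deposited again: the closest pair differed by a chi-square of 776 per degree of freedom.

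All 3 miRNAs were plainly present in every library. After TMM scaling, miR-451 averaged 2604 ± 1492 counts per 1000000 (CPM; SD, n = 18), miR-486 1668 ± 662 CPM and miR-144 164 ± 71.8 CPM, which placed them 37th, 41st and 96th in level among the 221 tested miRNAs. CPM counts reads with no length scaling, and mean read lengths over the libraries were 22.17, 22.21 and 17.55 bases in the same order. The SD was widest relative to the mean for miR-451. miR-486 stood below miR-451 in 15 of 18 libraries and above it in high replicates 4, 6 and 9, with a ratio of miR-486 to miR-451 from 0.272 to 1.76. The ratio of miR-451 to miR-144 ran from 6.69 to 43.1 with a median of 16.5, so the products of the neighbouring hairpins did not keep one proportion across pigs. The ratio of miR-451 to miR-23a, a measure used for red cell rupture in plasma, was 0.917 to 4.15 and was highest in low replicate 7.

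miR-451 was 2628, 2187, 2517, 1732, 2818, 1649, 2565, 1813 and 2836 CPM in high replicates 1 to 9, and 1322, 1780, 1432, 1815, 2613, 2299, 8034, 3271 and 3554 CPM in low replicates 1 to 9. The high pigs all lay inside the range of the low pigs, which held the 2 lowest and the 3 highest libraries. Its mean was 2305 ± 471 CPM in high pigs (SD, n = 9) and 2902 ± 2075 CPM among low pigs (SD, n = 9), and the log2 fold change, high over low with sex as a covariate, was -0.35 ± 0.26 (SE, edgeR's quasi-likelihood test, adjusted p = 0.407). Low replicate 7 carried most of that value: without it the log2 fold change was -0.023 ± 0.20 (adjusted p = 0.951). With the run of library codes in the fit it was 0.025 ± 0.22, and without the AC485 to AC488 libraries 0.21 ± 0.18, neither past the threshold.

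miR-144 was 163, 104, 129, 175, 149, 75.1, 188, 101 and 332 CPM in high replicates 1 to 9, and 122, 65.9, 132, 271, 156, 142, 186, 165 and 294 CPM in low replicates 1 to 9. The classes overlapped over nearly their whole range, with single high values in high replicate 9 and in low replicates 4 and 9. The means were 157 ± 75.3 CPM in high pigs and 170 ± 72.0 CPM in low pigs, and the log2 fold change was -0.15 ± 0.26 (edgeR's adjusted p = 0.749). With the run of library codes in the fit the value was 0.050 ± 0.24 (adjusted p = 0.924), so its sign rested on that choice.

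miR-486 was 1964, 1305, 1347, 2061, 1494, 2900, 1679, 1188 and 3526 CPM in high replicates 1 to 9, and 1176, 1281, 1073, 1165, 1423, 1077, 2185, 1772 and 1414 CPM in low replicates 1 to 9. The medians were 1679 CPM in high pigs and 1281 CPM in low pigs. The classes overlapped, although the 2 highest libraries, replicates 6 and 9, were high pigs and the 4 lowest were low pigs. Between the classes, 54 of 221 miRNAs had an unadjusted p under 0.05 in edgeR. The log2 fold change of miR-486 was 0.47 ± 0.21 (edgeR's adjusted p = 0.169, unadjusted p = 0.0367), which did not pass after adjustment over the 221 miRNAs. With the run of library codes in the fit it was 0.65 ± 0.17 and passed (adjusted p = 0.0451), and adjusted p over the other alternatives, each library left out included, was 0.115 to 0.363. It was positive in each of these fits, and 0.31 without high replicate 6 or without high replicate 9.

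**Figure D1:**
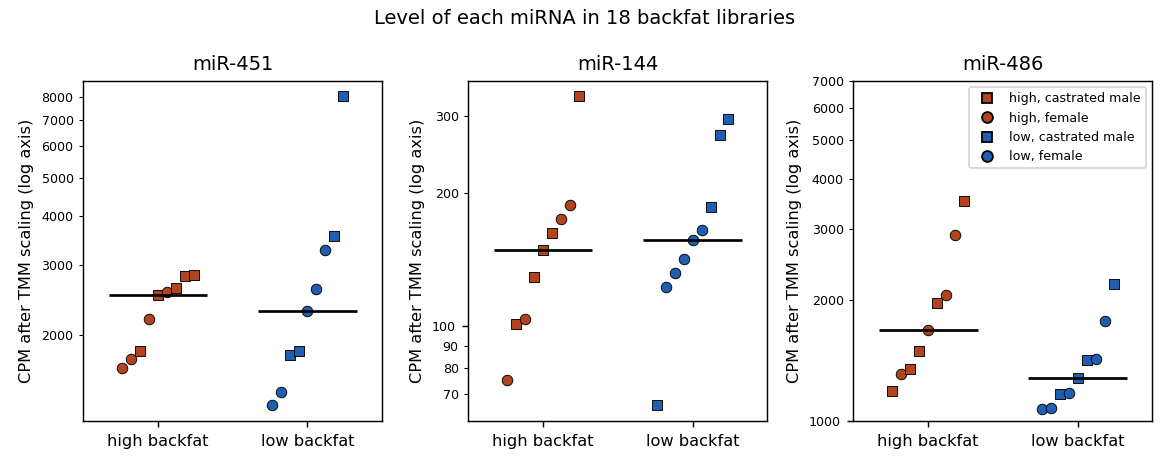
Level of miR-451, miR-144 and miR-486 in 18 backfat libraries, in CPM after TMM scaling on log axes, high backfat left and low backfat right, squares for castrated males, circles for females and a line at each class median. The classes overlap in each panel, miR-451 has 1 library at 8034 CPM among the low pigs, and the miR-486 medians are 1679 CPM in high pigs and 1281 CPM in low pigs.

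By sex, miR-451 was 1780 to 8034 CPM in castrated males (median 2628) and 1322 to 3271 CPM in females (median 2187), a log2 fold change of 0.55 ± 0.26, castrated males over females with class as a covariate (edgeR's adjusted p = 0.598). miR-144 was 65.9 to 332 CPM in castrated males (median 163) and 75.1 to 188 CPM in females (median 142), with 0.44 ± 0.26 (adjusted p = 0.628). miR-486 was 1165 to 3526 CPM in castrated males (median 1414) and 1073 to 2900 CPM in females (median 1423), with 0.08 ± 0.21 (adjusted p = 0.937; -0.032 without low replicate 7 and -0.064 without high replicate 9). The sexes overlapped for all 3, and 0 of 221 miRNAs passed this comparison in edgeR (0%, 17 at an unadjusted p under 0.05) or in DESeq2.

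Within each sex the class contrast passed for none of the 3. In castrated males, where 9 of 221 miRNAs passed (4.07%), the log2 fold changes of high over low were -0.59 ± 0.36 for miR-451, -0.23 ± 0.38 for miR-144 and 0.33 ± 0.30 for miR-486. In females they were -0.11 ± 0.37, -0.08 ± 0.38 and 0.61 ± 0.30 for the same miRNAs, and 0 of 221 passed in edgeR (0%, 20 at an unadjusted p under 0.05) or in DESeq2. The difference between the sexes, castrated males minus females, was -0.48 ± 0.52 for miR-451, -0.15 ± 0.54 for miR-144 and -0.27 ± 0.42 for miR-486. None of the 3 passed, and over all miRNAs 0 of 221 did in edgeR (0%, 25 at an unadjusted p under 0.05) and 3 in DESeq2. Without low replicate 7, the value of miR-451 was 0.08 in castrated males and 0.18 for the difference between the sexes.

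A longer list of red blood cell and erythroid miRNAs had 15 of its 21 members in the tested table. Leaving out the 3 miRNAs above, 12 were tested, 7 had a positive and 5 a negative class log2 fold change, and 0 passed. Their median was 0.035, beside -0.034 over all 221 miRNAs. miR-16, the most abundant of the list, had 9370 ± 2424 CPM in high pigs and 8471 ± 941 CPM in low ones (0.12 ± 0.14, adjusted p = 0.627). miR-92a, of the miR-17 family of clusters, had 9142 ± 2434 CPM in high pigs and 7279 ± 1736 CPM in low pigs (0.35 ± 0.16, adjusted p = 0.187). Summed over those 12, the list ran from 17417 to 20954 CPM in high and from 12704 to 18139 CPM in low pigs. Nearly all of that sum was miR-16 and miR-92a, so it says little of the other listed miRNAs.

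Markers of other cell types gave the setting of these levels. Of the 4 tested leukocyte miRNAs, 2 had positive and 2 negative values and their sum was 1227 to 3590 CPM in high pigs and 1615 to 3245 CPM in low pigs. miR-223, the defining miRNA of granulocytes, was not in the tested table. The endothelial pair miR-126-3p and miR-126-5p summed to 11374 to 41786 CPM in high pigs and 24952 to 37943 CPM in low pigs. The 4 tested skeletal muscle miRNAs all had negative class log2 fold changes, with a median of -1.24 and unadjusted p of 0.00727 to 0.0387 (edgeR). After adjustment 0 of them passed, and over all miRNAs 54 of 221 had an unadjusted p under 0.05. Within castrated males miR-133a-3p (-2.14 ± 0.39) and miR-133b (-2.93 ± 0.54) passed, at an adjusted p of 0.00423 each (edgeR). Without the AC485 to AC488 libraries neither passed there. Females gave -0.064 ± 0.38 for miR-133a-3p and -0.066 ± 0.49 for miR-133b, and neither passed. The difference between the sexes did not pass for either miRNA (edgeR's adjusted p = 0.110 for both). miR-133b was scarce, averaging 1.07 CPM over the high pigs and 2.42 CPM over the low pigs. The 4 muscle miRNAs summed to 48.3 to 130 CPM in high pigs and 78.9 to 211 CPM in low pigs. miR-122 of liver was at most 8.71 CPM in high pigs and 43.1 CPM in low pigs, and was at 0 in libraries of both classes. miR-205 of epithelia was 1.23 to 16.0 CPM in high pigs and 1.96 to 49.5 CPM in low pigs. The part of these cell types in the levels of miR-451, miR-144 and miR-486 was not tested.

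miR-451 was read mainly as 3 nested products with one shared 5′ end, and the longest of them was the most abundant. The forms below are those of each read length, printed because the ladder of 3′ ends is the feature by which this miRNA is known; capitals mark templated bases beyond the annotated end.
miR-451 19 bases: aaaccgttaccattactga
miR-451 20 bases: aaaccgttaccattactgag
miR-451 21 bases: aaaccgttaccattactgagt
miR-451 22 bases: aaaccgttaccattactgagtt
miR-451 23 bases: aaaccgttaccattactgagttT
miR-451 24 bases: aaaccgttaccattactgagttTA
miR-451 25 bases: aaaccgttaccattactgagttTAG
Over the 18 libraries the form of 23 bases made up 44.2% of miR-451 reads, the annotated form of 22 bases 23.3% and the form of 21 bases 23.1%. The forms of 19, 20, 24 and 25 bases made up 1.89%, 1.35%, 0.883% and 0.677%. The 5′ end was nearly fixed, with 99.98% of reads starting at the annotated base, while the 3′ end spread over 7 positions. Reads templated past the annotated end were 45.7% of miR-451, 19th of the 175 miRNAs with enough reads for this measure, whose median was 4.31%. Because the precursor continues with T and then A, a T added to the forms of 20, 21 or 22 bases, or an A added to that of 23, cannot be told from the template.

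miR-144 was read mostly shorter than annotated. The forms are printed to show where it ends, with capitals as before.
miR-144 16 bases: tacagtatagatgatg
miR-144 17 bases: tacagtatagatgatgt
miR-144 18 bases: tacagtatagatgatgta
miR-144 19 bases: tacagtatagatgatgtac
miR-144 20 bases: tacagtatagatgatgtacT
miR-144 21 bases, starting 1 base earlier: ctacagtatagatgatgtacT
The form of 16 bases was the most abundant, at 43.4% of miR-144 reads, ahead of 18 bases at 21.5% and 20 bases at 18.6%. The form of 17 bases made up 6.89%, the annotated form of 19 bases 3.47% and the form with an earlier start 1.43%. Reads at least 3 bases shorter than annotated were 45.2% of miR-144, 1st of 175 miRNAs, whose median was 0.434%. The next in that order were miR-363 at 17.4% and miR-17-3p at 15.9%. The 5 forms with the annotated start, which 97.4% of reads kept, have the seed printed above, and in the form that starts 1 base earlier the same bases lie 1 position further from the 5′ end. The deposited table holds reads of 15 to 27 bases, so any products shorter than that were not seen.

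miR-486, unlike miR-451 and miR-144, was often read with last bases that depart from the precursor. In its forms, capitals mark the bases that depart from the precursor.
miR-486 21 bases: tcctgtactgagctgccccga
miR-486 22 bases: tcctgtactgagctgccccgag
miR-486 23 bases, added T: tcctgtactgagctgccccgagT
miR-486 23 bases, added A: tcctgtactgagctgccccgagA
miR-486 24 bases, added TT: tcctgtactgagctgccccgagTT
The annotated form made up 30.2% of miR-486 reads, the form with an added T 26.8%, the form of 21 bases 21.7%, the form with an added A 12.6% and the form with TT 1.34%. Per library, over all its forms, 27.7% ± 1.77 of reads ended in 1 T and 13.0% ± 1.47 in 1 A outside the template (SD, n = 18), against 0.179% ± 0.101 for G and 0.096% ± 0.077 for C. The shares for T and A were 13th and 12th of 175 miRNAs, whose medians were 3.14% and 2.75%. For miR-451 the same shares were 0.064% for T and 0.104% for A, 156th in order for each. They leave out a T added to its forms of 20, 21 or 22 bases and an A added to that of 23, which match the precursor. No such T or A form was listed for miR-144, where a T after the forms of 16 or 19 bases and an A after that of 17 match the precursor. Whether miR-486 gained more added bases than miR-451 or miR-144 therefore cannot be told from these shares. A mismatch in the last base may also be a sequencing error.

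The added T of miR-486 made up from 24.8% to 31.0% of its reads in high pigs (median 27.0%) and from 25.4% to 30.1% in low pigs (median 27.5%). The difference, high minus low, was -0.134 percentage points (exact two-sided permutation test of 9 against 9, adjusted p = 0.876 over 8 tests of tails). For the added A it was -0.237 points, with 12.9% ± 1.03 in high and 13.2% ± 1.87 in low pigs (adjusted p = 0.876, same test). Between castrated males and females the T differed by 0.588 points and the A by 0.148 points (adjusted p = 0.876 for both, exact permutation test).

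**Figure D2:**
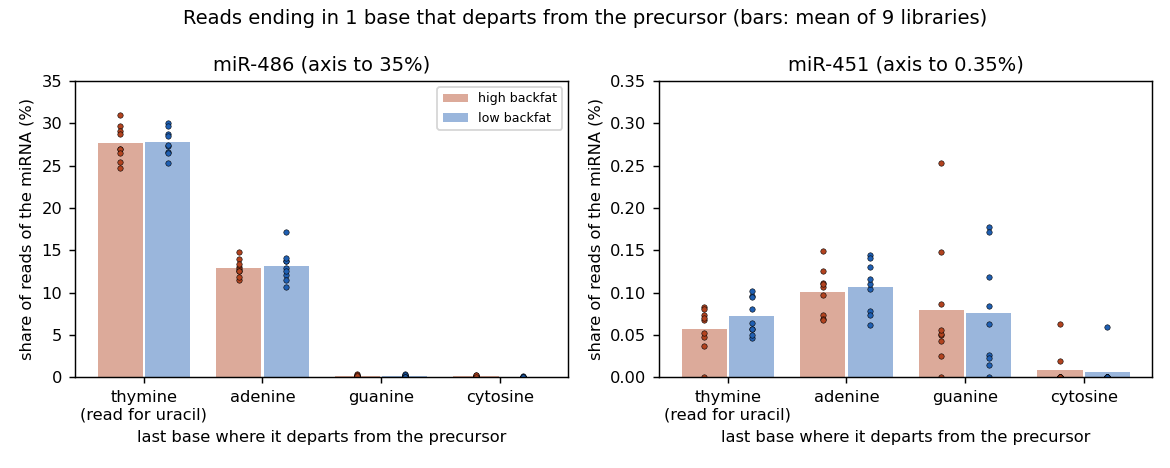
Share of reads of miR-486 and miR-451 that end in 1 base departing from the precursor, by the base, in percent, with bars for the mean of 9 high and 9 low libraries and points for libraries. The axis runs to 35% for miR-486 and to 0.35% for miR-451, and thymine and adenine on miR-486 average 27.7% and 13.0% over the 18 libraries.

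Departures other than in the last 1 or 2 bases alone were in 4.38% of miR-451, 3.38% of miR-144 and 3.25% of miR-486 reads pooled. The median of 175 miRNAs was 4.39%. For miR-486 this was below the shares of T and A tails given above, while for miR-451 and miR-144 it was above them. The positions below count from 1 at the 5′ end and give the annotated base first. The most frequent was A2T for miR-451, at 1.47% of its reads pooled and 0.116% to 3.26% by library. For miR-144 it was C3T, at 1.12% pooled, up to 3.66% and absent from 5 libraries. Close behind it were A2T (1.10% pooled, absent from 6 libraries) and A7C (1.03% pooled, absent from 10 libraries). For miR-486 the most frequent was C3T, at 1.01% pooled and 0.354% to 2.01%. A7C, the next for miR-486, was 0.76% pooled and up to 3.18%, and absent from 6 libraries. The count table cannot tell a sequencing error from an edited base.

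No measure of length passed between the backfat classes for the 3 miRNAs. The form of 23 bases was 29.0% to 50.8% of miR-451 reads in high pigs (median 45.6%) and 35.6% to 62.0% in low pigs (median 47.5%). The lowest was high replicate 8 at 29.0% (95% Wilson interval 28.6% to 29.3%, counting error only) and the highest low replicate 7 at 62.0% (61.6% to 62.3%). Mean read length of miR-451 was 22.14 ± 0.131 bases in high and 22.21 ± 0.155 bases in low pigs (SD, n = 9 each), a difference of -0.069 bases (exact two-sided permutation test, adjusted p = 0.530 over 15 tests). Its reads were longer than annotated at 46.0% ± 7.02 in high and 49.7% ± 7.998 in low pigs, and shorter at 28.8% ± 5.30 in high and 26.4% ± 5.91 in low pigs.

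For miR-144 the form of 16 bases was 32.9% to 60.9% of reads in high pigs (median 42.3%) and 25% to 60.1% in low pigs (median 42.4%). With 1414 to 9724 reads of miR-144 in a library, the 95% Wilson interval around the lowest of these, low replicate 7, ran from 22.9% to 27.2%. Its mean length was 17.48 ± 0.261 bases in high and 17.63 ± 0.405 bases in low pigs, a difference of -0.149 (adjusted p = 0.530). For miR-486, mean length was 22.19 ± 0.050 bases in high and 22.23 ± 0.078 bases in low pigs, a difference of -0.043 (adjusted p = 0.530), and reads shorter than annotated were 25.4% ± 2.41 in high and 21.7% ± 5.47 in low pigs. In all, 0 of 15 length and mismatch measures passed between the classes (lowest unadjusted p 0.0613, exact permutation test) and 0 of 15 between castrated males and females, where adjusted p was 0.921 to 0.942.

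**Figure D3:**
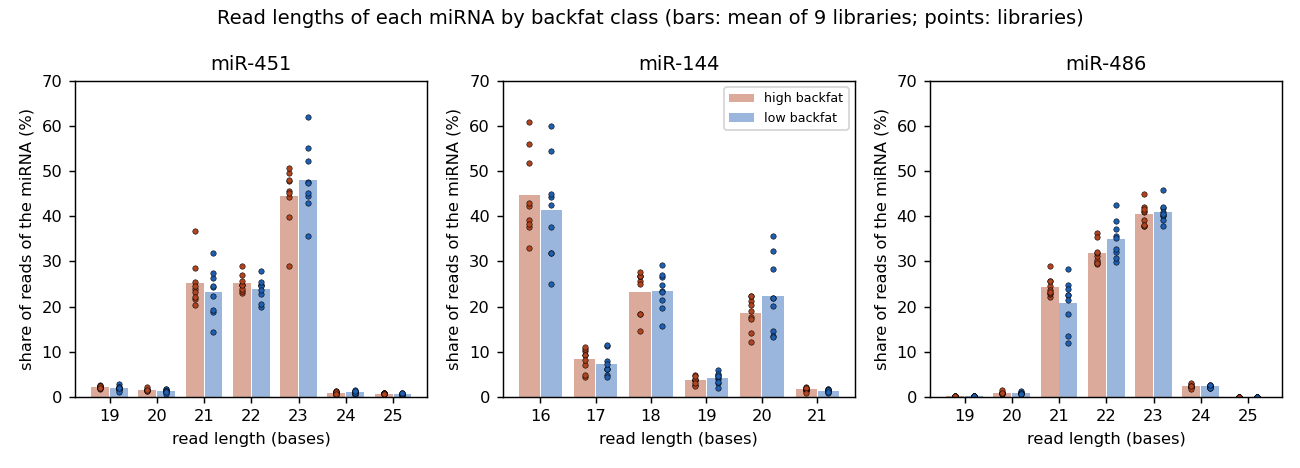
Share of reads of miR-451, miR-144 and miR-486 at each read length in bases, in percent, with bars for the mean of 9 high (left of each pair) and 9 low libraries and points for libraries. The most abundant lengths are 23 bases for miR-451 and 16 bases for miR-144, and the classes overlap at every length shown.

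Single forms were also compared between the classes. Of the forms with enough counts, 56 of miR-451, 17 of miR-144 and 40 of miR-486 were tested among 7859 in the table, and 0 passed in edgeR over the whole table (0%, 514 at an unadjusted p under 0.05), against 192 in DESeq2. Among miR-486 forms 33 of 40 were positive with a median log2 fold change of 0.62 and 11 had an unadjusted p under 0.05, with a lowest adjusted p of 0.269. Among miR-451 forms 25 of 56 were positive with a median of -0.21, and among miR-144 forms 3 of 17 with a median of -0.18, beside -0.0063 over all forms. Forms of 1 miRNA share its total and are not independent.

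The 3 miRNAs rose and fell together only loosely from pig to pig. miR-451 and miR-144, the products of one cluster, had a Pearson r of 0.44 between log2 CPM values over 18 libraries (permutation p = 0.0659, adjusted p = 0.264 over 36 pairs) and a Spearman rho of 0.64 (permutation p = 0.00555, adjusted p = 0.0999). miR-451 and miR-486 had r = 0.35 (permutation p = 0.153, adjusted 0.366) and rho = 0.48 (permutation p = 0.0437, adjusted 0.237). miR-144 and miR-486 had r = 0.25 (permutation p = 0.310, adjusted 0.559) and rho = 0.38 (permutation p = 0.123, adjusted 0.444). None of these passed after adjustment.

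Each of those values was lower when runs of library codes were taken out. Centred within run, r was 0.12 for miR-451 with miR-144, -0.016 for miR-451 with miR-486 and 0.0052 for miR-144 with miR-486. All 3 medians were higher in the AC485 to AC488 libraries than in the other runs: 3412 against 1774 to 2432 CPM for miR-451, 240 against 113 to 153 CPM for miR-144 and 1978 against 1256 to 1459 CPM for miR-486. Without those 4 libraries r was 0.30, 0.13 and -0.13 in the same order. Without the 2 libraries farthest from the median it was 0.54, 0.20 and -0.12. When only reads that match the annotated sequence exactly were counted, miR-451 and miR-144 had r = 0.61 and passed (permutation test, adjusted p = 0.036). Such reads were 23.3% of those of miR-451 and only 3.47% of those of miR-144, so that value covers a minor form.

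Within the classes the pair miR-451 and miR-486 had r = 0.00055 over the 9 high pigs and r = 0.89 over the 9 low pigs (exact permutation test, adjusted p = 0.999 in high and 0.00622 in low pigs over 3 pairs). Spearman's rank coefficient for this pair was 0.13 in high and 0.75 in low pigs (adjusted p = 0.744 in high and 0.0382 in low pigs, exact permutation test), and the difference between the classes was not tested. The AC485 to AC488 libraries were 3 of the low and 1 of the high pigs, so class and run of codes were partly mixed here. Over all 18 libraries this pair had r = -0.016 when centred within run. miR-451 and miR-144 had r = 0.65 in high and 0.41 in low pigs (exact permutation test, adjusted p = 0.172 in high and 0.398 in low pigs). By sex, r was 0.36 in castrated males and 0.47 in females for miR-451 with miR-144, and 0.50 in castrated males and 0.092 in females for miR-451 with miR-486.

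**Figure D4:**
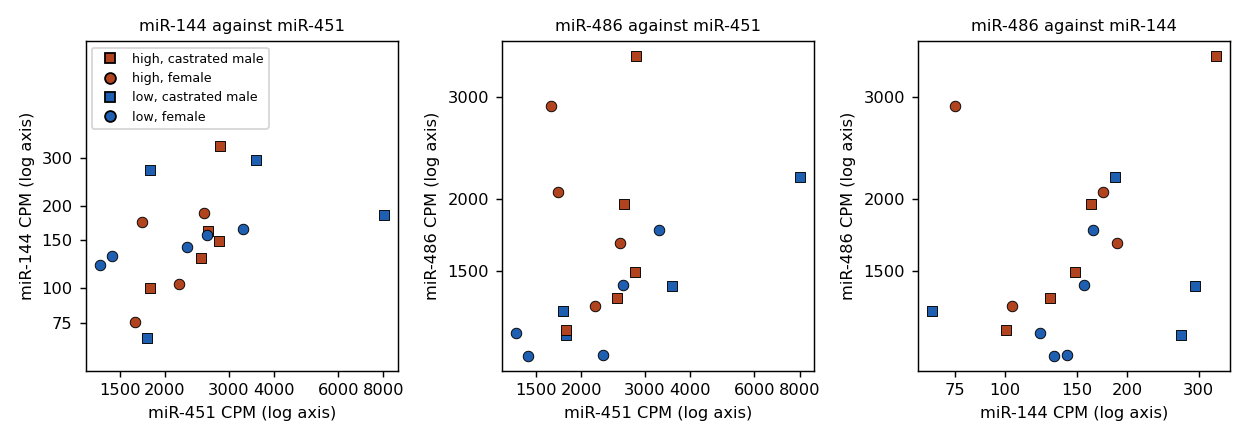
Levels of miR-144 and miR-486 against miR-451, and of miR-486 against miR-144, in 18 libraries, in CPM on log axes, with color for backfat class and shape for sex. Pearson r of the log2 values is 0.44, 0.35 and 0.25, and low replicate 7 stands far to the right on the miR-451 axis.

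Of the 33 pairs of these miRNAs with a comparator miRNA, 2 passed. miR-451 rose with miR-10b, a miRNA with 334626 CPM on average, with r = 0.72 (permutation p = 0.00044, adjusted 0.0158) and rho = 0.81 (adjusted 0.00396). That call was lost within runs of library codes (r = 0.46, adjusted permutation p = 0.248) and without low replicate 7 (r = 0.68, adjusted permutation p = 0.112). miR-451 ran opposite to miR-92a, itself on the red blood cell list, with r = -0.70 (permutation p = 0.00153, adjusted 0.0275) and rho = -0.56 (adjusted 0.205). That call was lost within runs (r = -0.66, adjusted permutation p = 0.0965) and without low replicate 7 (r = -0.55, adjusted p = 0.258) or low replicate 9 (r = -0.68, adjusted p = 0.099). The leukocyte miR-142-5p had r = 0.38 with miR-451, 0.59 with miR-144 and 0.084 with miR-486, and the most abundant miRNA of the red blood cell list, miR-16, had 0.13, 0.38 and -0.15 (none past the threshold).

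As a description, with no test, each miRNA was set against 172 other miRNAs of at least 10 CPM over the 18 libraries. The 5 most like miR-451 were miR-18a (r = 0.82), miR-98 (0.76), miR-10b (0.72), miR-192 (0.71) and miR-19b (0.66), and miR-144 came 21st and miR-486 35th. Spearman's rho for those 5 was 0.63, 0.80, 0.81, 0.34 and 0.48 in the same order. The 5 most like miR-144 were miR-98 (0.70), miR-32 (0.65), miR-545-5p (0.63), miR-101 (0.62) and miR-582 (0.62), with miR-451 at 21st. Their rho was 0.70, 0.66, 0.64, 0.53 and 0.53. The 5 most like miR-486 were miR-1306-5p (0.62), miR-139-5p (0.62), miR-365-5p (0.57), miR-191 (0.52) and miR-326 (0.49). Their rho was 0.68, 0.42, 0.49, 0.45 and 0.31. All points share library depth and scaling.

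The mean read lengths of the 3 miRNAs were also set against each other, and whether they were linked more closely than the levels was not tested. Those of miR-451 and miR-486 had r = 0.90 over 18 libraries (permutation p = 2e-05, adjusted 0.0003 over 15 relations chosen after seeing the data) and rho = 0.82 (adjusted 0.0012). The value was 0.78 without the 2 farthest libraries, 0.88 centred within runs of library codes and 0.83 without the AC485 to AC488 libraries. The lengths of miR-451 and miR-144 had r = 0.68 (permutation test, adjusted p = 0.0143; rho 0.54, adjusted 0.111; 0.47 without the 2 farthest, 0.68 within runs). The lengths of miR-144 and miR-486 had r = 0.57 (permutation test, adjusted p = 0.0346; rho 0.47, adjusted 0.149), but 0.25 without the 2 farthest libraries, so that relation rested on them.

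Low replicate 7 had the longest reads of all 3 miRNAs, with means of 22.48, 18.24 and 22.38 bases for miR-451, miR-144 and miR-486, and high replicate 8 and low replicate 4 had the shortest reads of miR-451 and miR-486. Among 174 miRNAs, miR-486 was the one whose mean length followed that of miR-451 most closely and miR-144 the 4th, and the median r of all 174 was -0.16, with 64 positive. Between them came miR-181b (r = 0.71) and miR-374b-5p (0.69). For miR-486, miR-451 was 1st and miR-144 only 7th, with miR-148a-5p (0.79) and miR-181b (0.77) ahead of it. For miR-144, miR-374b-5p was 1st (0.69), miR-451 2nd and miR-486 5th. No relation passed between the lengths of the 3 miRNAs and the median length offset of 171 other miRNAs, a measure of read length in the library at large. There r was -0.14 for miR-451, 0.05 for miR-144 and -0.14 for miR-486 (permutation test, lowest adjusted p = 0.79).

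**Figure D5:**
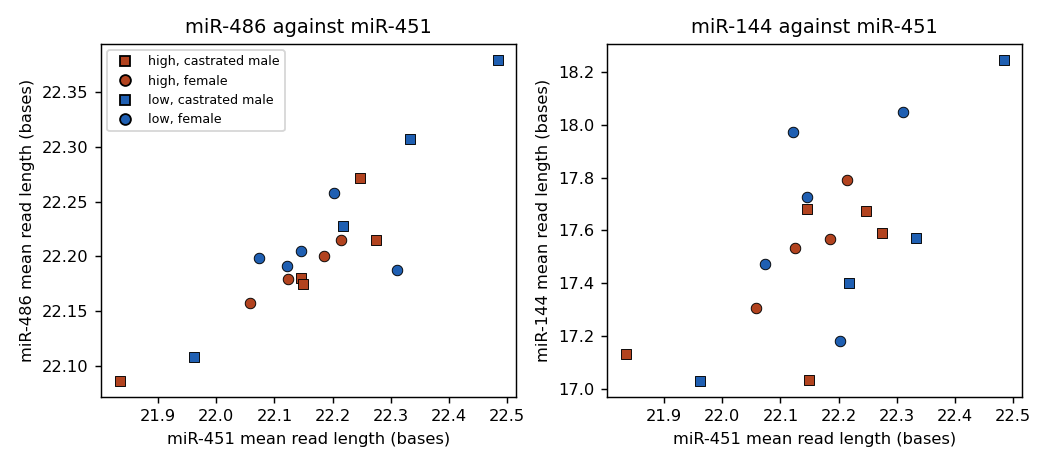
Mean read length in bases of miR-486 (left) and of miR-144 (right) against that of miR-451 in 18 libraries, with color for backfat class and shape for sex. Pearson r is 0.90 and 0.68, and low replicate 7 lies at the upper right of both panels.

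Level also moved with depth. Over 18 libraries miR-486 fell as the total count rose, with r = -0.66 between log2 CPM and log2 total (permutation test, adjusted p = 0.0154; rho -0.71, adjusted 0.012), and r was -0.64 within runs, -0.61 without the AC485 to AC488 libraries and -0.51 without the 2 farthest libraries. For miR-451 r was -0.59 (permutation test, adjusted p = 0.0252; rho -0.43, adjusted 0.179), but -0.31 without the 2 farthest libraries, -0.28 within runs and 0.022 without the AC485 to AC488 libraries. The relation of miR-451 thus rested on the AC485 to AC488 libraries, where depth and run of codes cannot be told apart. For miR-144 r was -0.33 (adjusted permutation p = 0.372). The median total was 19848593 counts in high and 21095206 in low pigs, and the part of depth in the class values of miR-486 was not tested. miR-451 reads were longer where miR-451 was more abundant (r = 0.63, permutation test, adjusted p = 0.0252; rho 0.49, adjusted 0.149), and r was 0.38 without the 2 farthest libraries. For miR-144 and miR-486, length against own level gave r = -0.052 and 0.097, and no level was related to age past the threshold. For age r was -0.051 for miR-451, -0.28 for miR-486 and 0.31 for miR-144, and for miR-144 it was 0.48 within runs, 0.67 without the AC485 to AC488 libraries and 0.096 without the 2 farthest libraries (not tested).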

How the data were processed

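Small RNA libraries (TruSeq Small RNA, Illumina GAII, single reads) were made from frozen backfat after Trizol extraction, per the labels' protocols. The authors deposited a raw count of each read sequence under its mature miRNA and precursor, and the same table normalised, where the deposited signal is the raw count over 1 factor per library, 0.464 to 1.928. Per the submitters' processing notes, the tools were Bowtie 0.12.7, HTSeq and DESeq2 1.4.5 and the build Sscrofa10.2, with no role or order. Settings for trimming, length and mismatches were not given in the sources used here. Another 2 columns of values in the tables match no sample and were left aside. Columns were tied to samples by animal number and library code, and groups came from the labels' backfat class and sex.

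Counts were summed per mature miRNA, each read sequence once. The main test was edgeR 4.0.16 (R 4.3.3) quasi-likelihood F on raw counts, with filterByExpr at a minimum count of 10, TMM scaling, Benjamini-Hochberg adjustment over the whole table, a threshold of 0.05, sex (or class) as covariate and 4 cells of sex by class for contrasts within sex. Log2 CPM used a prior count of 2 and SE was derived from the F statistic. Alternatives used DESeq2 1.42.0 and limma 3.58.1 (on log2 of the deposited normalised counts plus 1 or 0.5), and shares, lengths and correlations Python 3.11.15, NumPy 2.4.6, SciPy 1.17.1 and Matplotlib 3.10.9. Shares were tested by exact permutation over 48620 splits, and correlations with 100000 permutations, or all orders where exact is stated for 9 pigs. A tail is 1 last base that departs from the precursor as read from longer exact forms in the table. Tested on simulated counts, the class fit recovered 82.5% of summed miRNAs changed by a log2 fold of 1 and 100% at 2, and 1.14% and 61.1% of single forms. Those counts had the fitted spread of each feature, no effect of sex or run, and more changed features than passed here. Recovery in the real libraries may therefore differ. The p-values of group differences set them against the spread between libraries. With 1 library per pig, variation between pigs and between libraries cannot be told apart.

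The members, the marker lists and the comparators were chosen with earlier results of these data known, so none of them is independent evidence. The forms named are the 5 most abundant of each miRNA and the most abundant of each length, with minor ones of miR-486 left out, and the miRNAs named as alike are the 5 with the highest r. The relations of length, depth and age, the tail shares and the most frequent mismatches were added after seeing the data. Sequences are from the deposited table, and neighbouring genes were matched by symbol to an annotation of Sscrofa11.1, whose coordinates are not given because the builds differ.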

Additional observations from a re-analysis of the deposited data

Results flagged for a closer look

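A library stood apart from its class, by a gap to the nearest other library larger than a critical value that chance passes in about 1 of 20 groups, in 7 of 36 groups of 9 libraries. miR-451 in low replicate 7 was 8034 CPM, and the next low pig had 3554 CPM. miR-144 in high replicate 9 was 332 CPM, and the next high pig had 188 CPM. The mean read length of miR-451 in high replicate 8 was 21.83 bases, below the next high pig at 22.06 bases. In that library 41.2% of miR-451 reads were shorter than annotated (95% Wilson interval 40.8% to 41.6%), against 32.0% in the next high pig, and 30.7% of miR-486 reads (30.3% to 31.2%), against 26.7%. Mismatched reads of miR-451 were 8.95% in high replicate 5 (8.71% to 9.18%), against 5.72% in the next high pig, and 9.9988% in low replicate 6 (9.76% to 10.25%), against 4.84% in the next low pig. The intervals cover counting error only.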

How the results depend on the processing

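No paired analysis was possible because the replicate numbers only order the pigs within each class, and no label links a high with a low pig. The cause was not tested for any change given here. Class log2 fold changes with a term for the run were 0.025 for miR-451, 0.050 for miR-144 and 0.65 for miR-486 (past the threshold), and without the AC485 to AC488 libraries miR-451 was 0.21. For miR-486 between castrated males and females, the log2 fold change was -0.16 with the run term and -0.19 without those libraries. Within castrated males, miR-144 was 0.051 with the run term and miR-451 was 0.42 without those libraries. Within females, miR-144 was 0.050 with the run term, 0.16 with an age term and 0.0012 with all listings of a sequence summed, and miR-451 was 0.16 with the run term, 0.0065 with an age term and 0.070 without those libraries. For the difference between the sexes, miR-144 was 0.0012 with the run term and miR-451 was 0.35 without those libraries. None of these other than miR-486 passed.

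The number of all miRNAs past the threshold between the classes, 8 in the main fit, was 1 with DESeq2 size factors, 1 with no low-count filter, 22 in DESeq2, 3 without mismatched reads, 0 with an age term, 0 without the AC485 to AC488 libraries, and 0 and 0 in limma at pseudocounts of 1 and 0.5. Within castrated males the 9 became 5 with age and 0 without those libraries, and for the difference between the sexes DESeq2 gave 3. Single forms past the threshold numbered 21 at a mean of at least 10 CPM and 192 in DESeq2.

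Without the AC485 to AC488 libraries, the class difference of mean length was 0.017 bases for miR-144, and that of its share at the annotated length 0.11 points. For miR-486 the class difference was 0.51 points in the longer share and 1.12 points in the mismatched share. Castrated males minus females was then -0.048 bases for miR-451 and -0.017 bases for miR-486.

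Comparator pairs past the threshold, 2 in the main analysis, were 1 on the deposited normalised counts, 1 without TMM scaling, 0 centred within run, 5 with exact matches only, 0 without the 2 farthest libraries and 0 without the AC485 to AC488 libraries. miR-451 with miR-144 was 0.61 with exact matches only and passed, and miR-451 with miR-486 was -0.016 centred within run and 0.89 within low pigs. miR-144 with miR-486 was -0.12 without the 2 farthest libraries, -0.13 without the AC485 to AC488 libraries and -0.25 within females. miR-451 with miR-92a no longer passed at -0.51 on the deposited normalised counts, -0.51 without TMM scaling, -0.66 centred within run, -0.56 with exact matches only, -0.61 without the 2 farthest and -0.38 without the AC485 to AC488 libraries. miR-451 with miR-10b no longer passed at 0.46 centred within run, 0.72 without the 2 farthest and 0.63 without the AC485 to AC488 libraries.

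With each library left out in turn, the number of miRNAs past the threshold was 0 to 12 between the classes, 2 to 13 within castrated males and 0 to 3 for the difference between the sexes, and that of single forms 0 to 2. The log2 fold change of miR-486 between the sexes was -0.064 (without high replicate 9) to 0.21, and -0.032 without low replicate 7. Within castrated males miR-144 was -0.56 to 0.00069 (without low replicate 9) and miR-451 -0.86 to 0.076 (without low replicate 7). Within females miR-144 was -0.29 to 0.066 (without high replicate 6, and 0.036 without high replicate 2) and miR-451 -0.25 to 0.085 (without low replicate 8). The difference between the sexes was -0.47 to 0.073 for miR-144 (above 0 without low replicates 4 or 9 or high replicate 7), -0.72 to 0.18 for miR-451 (without low replicate 7) and -0.58 to 0.0075 for miR-486 (without high replicate 6). Class differences were -0.28 to 0.96 points for mismatched reads of miR-451, -0.30 to 0.64 for miR-144 and -1.14 to 0.35 for miR-486, and -1.12 to 0.17 (without low replicate 7) for longer reads of miR-486. Between the sexes, mean length differed by -0.014 to 0.067 bases for miR-451 and -0.0025 to 0.034 for miR-486, each lowest without low replicate 7. Comparator pairs past the threshold were 0 to 3, and r was -0.030 (without high replicate 9) to 0.54 for miR-144 with miR-486, -0.73 to -0.55 for miR-451 with miR-92a and 0.68 to 0.78 for miR-451 with miR-10b. Over the alternatives other than leaving out 1 library, 222 values of fold changes, counts of calls, mean lengths and correlations kept their direction and side of the threshold (for counts, stayed within 1.5 times), 19 counts moved further, 22 values changed sign, 3 came to pass and 9 no longer passed. Of the shares of reads by length and mismatch between the classes, 30 kept their direction and 3 changed sign.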
